A study of Caenorhabditis elegans with 8 samples.

Results

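Many protein-coding genes of the nematode Caenorhabditis elegans have no published gene name and are known only by a sequence name, which joins the name of the clone that was sequenced with a number for the gene on it. The 23 genes described here are such unnamed genes, and they were chosen by their levels in these libraries as genes that were lower in every urolithin A (UA) library than in every control library. A gene was taken when its RefSeq symbol was only its sequence name, its mean over the 8 libraries was at least 0.5 CPM (the reads on the gene divided by the total of the library and multiplied by 1000000), its highest UA value lay below its lowest control value, and its mean control level was at least 1.2 times its mean UA level. Of the 46928 genes in the table, 18299 were unnamed, 4559 of these reached 0.5 CPM, and 23 met every criterion, beside 4 others (C17H12.8, C17H12.6, F55G11.8 and K08D8.5) that met them too and were set aside by name. Since the difference between UA and control libraries selected the members, it is given below as a description, and nothing is read from tests of it.

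RNA came from whole wild-type N2 animals fed the Escherichia coli strain OP50, in 4 populations grown with 50 μM UA and 4 grown in parallel without it. UA is a metabolite that gut bacteria make from plant polyphenols, and it is known as an inducer of mitophagy, the removal of mitochondria by autophagy. The deposited design text states that treatment began in L4 larvae and lasted to adult day 4, whereas the methods of the study state that 100 to 150 animals per population were harvested at day 1 of adulthood, so the age at harvest is uncertain. The comparison asks which transcripts change in abundance with UA, and in whole animals fewer cells of a type and less RNA per cell cannot be told apart.

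An unnamed gene is not a gene without a function. Many unnamed nematode genes belong to families that are expressed in the intestine or hypodermis and respond to food, microbes and chemicals, and neighbouring genes of such families often arose from each other by duplication. Neither the deposited table nor the annotation used here gives a role for any of the 23 genes, so they are described by level, position and neighbours.

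The libraries held between 41890058 and 43055719 counted reads. Markers of the intestine, germ line, muscle, neurons and coelomocytes were all detected, the sperm genes msp-3 and msp-10 were at 0 in every library, and the 9 sperm markers together stayed between 2.64 and 5.22 CPM. Of 58 marker genes tested, 6 were lower and 4 were higher with UA in edgeR's quasi-likelihood test at the thresholds of the study, a fold change over 1.2 with p under 0.05 before adjustment (such genes are named called below). Of all tested genes, 1.55% were called lower and 4.12% were called higher, and 5 of the 6 lower markers were pathogen response genes. The changed cell type markers were elt-2 of the intestine and spe-11 of sperm, which were higher, and col-19 of the adult hypodermis, which was lower. Their adjusted p in edgeR was 0.343, 0.239 and 0.558, respectively, and spe-11 reached at most 0.791 CPM. No marker of the germ line, embryo, muscle, neurons or coelomocytes was called. With the replicate number as a block, dpy-7 of the hypodermis (log2 fold change -0.46, adjusted p = 0.414) was called lower as well. Most of the summed level of the 8 intestine markers came from vit-2 and vit-6. This summed level ranged from 34390 to 50846 CPM in control libraries and from 42292 to 51636 CPM in UA libraries. That of the 6 hypodermis markers ranged from 80.4 to 123 CPM and from 56.7 to 102 CPM, respectively. The part of these markers in the levels described below was not tested.

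The 23 genes were mostly of low abundance. Their means over the libraries ran from 0.592 CPM for C03D6.9 to 53.7 CPM for F54D5.4, and 12 of them (52.2%) were under 2 CPM, against 28.2% of the other 4536 unnamed genes above the floor. Per kilobase of exon, the median level was 1.89 CPM for the 23 genes and 6.56 CPM for the other unnamed genes. The ratio of the control mean to the UA mean had a median of 1.56 and ran from 1.21 to 4.51, against a median of 0.984 in the other unnamed genes. For 6 genes the ratio was 2 or more, for 7 it lay between 1.5 and 2, and for 10 it was under 1.5. At any fold, 0.855% of the unnamed genes above the floor (39 of 4559) had every UA value below every control value, and 183 had every UA value above. How many genes would separate so without an effect of UA was not tested, so nothing is read from these counts.

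**Figure D1:**
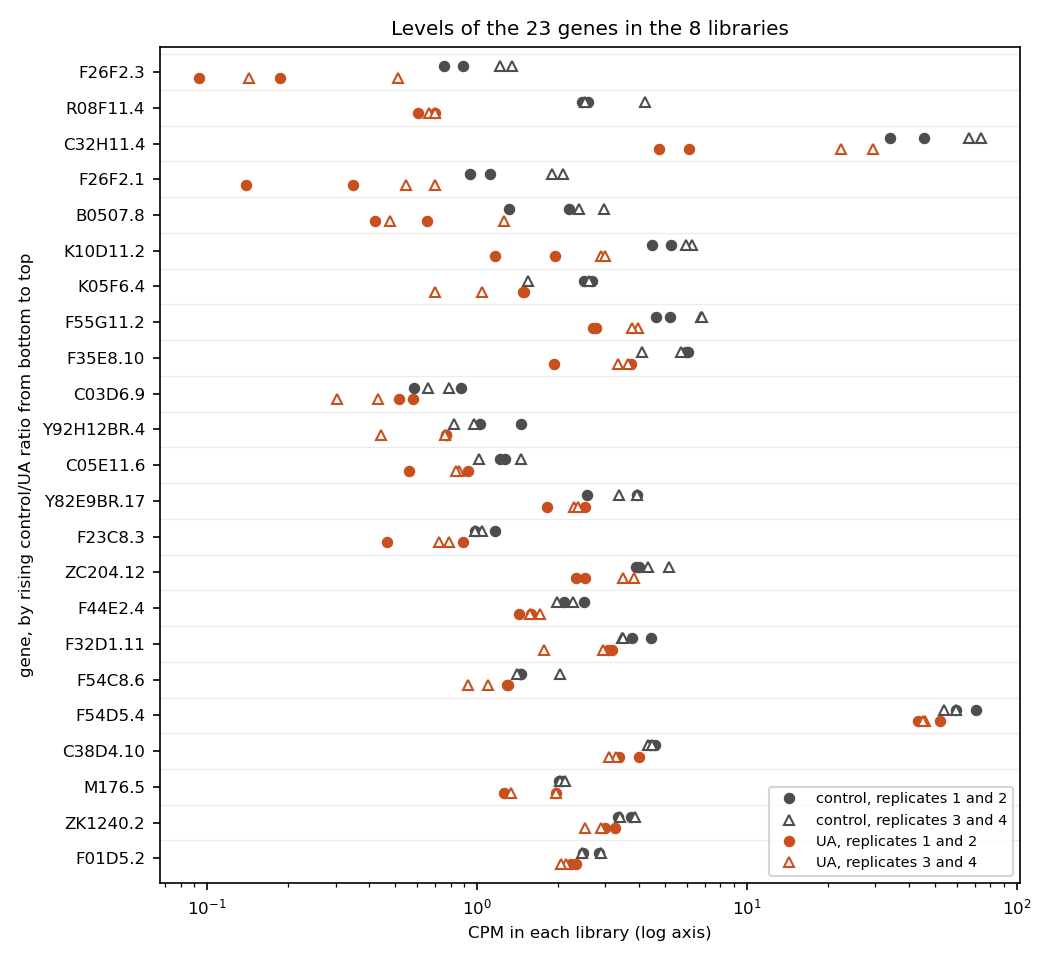
CPM of each of the 23 genes (rows, with the highest control/UA ratio at the top) in each of the 4 control and 4 UA libraries on a log axis, with filled circles for replicates 1 and 2 and open triangles for replicates 3 and 4. The groups do not overlap in any row because the genes were chosen so, and the distance between them runs from wide for R08F11.4, with a lowest control value 3.51 times its highest UA value, to narrow for C03D6.9, where this ratio is 1.01.

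The widest separation was that of R08F11.4, a protein-coding gene at 3803839 to 3805527 of chromosome V (WBcel235, minus strand). R08F11.4 was at 2.45, 2.58, 2.51 and 4.19 CPM in control replicates 1 to 4 and at 0.608, 0.698, 0.668 and 0.699 CPM in UA replicates 1 to 4. The UA libraries were almost equal, and control replicate 4 stood above the other 3 control libraries. The means were 2.93 ± 0.840 CPM in control and 0.668 ± 0.0425 CPM in UA libraries (SD, n = 4 each), a ratio of 4.39.

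F26F2.3 and F26F2.1 are minus-strand genes of the right arm of chromosome V, 3393 bases apart. F26F2.3 (20565289 to 20566554) had the highest ratio of the 23 genes, 4.51, with 0.754, 0.890, 1.35 and 1.22 CPM in the control libraries and 0.0935, 0.186, 0.143 and 0.512 CPM in the UA libraries. UA replicate 4 was far above the other 3 UA libraries, yet below every control library. F26F2.1 (20559162 to 20561895) was at 0.942, 1.12, 1.90 and 2.09 CPM in control libraries and at 0.140, 0.349, 0.549 and 0.699 CPM in UA libraries, a ratio of 3.49. In both conditions its replicates 3 and 4 were the higher ones. Few reads lie behind these genes, with as few as 4 in a UA library for F26F2.3 and 6 for F26F2.1.

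C32H11.4 (chromosome IV, 12921264 to 12923296, plus strand) was the most abundant of the genes with a ratio over 2. Its control libraries held 45.4, 33.9, 66.9 and 73.9 CPM and its UA libraries 4.72, 6.14, 29.3 and 22.3 CPM. UA replicates 3 and 4 were thus several times higher than UA replicates 1 and 2, and the highest of them came close to the lowest control library. The SDs were 18.6 CPM among control and 12.1 CPM among UA libraries (n = 4 each), and the ratio of the means was 3.52.

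K10D11.2 and F55G11.2 lie on the same stretch of chromosome IV, at 12978986 to 12981991 on the plus strand and at 12967445 to 12969289 on the minus strand. K10D11.2 was at 5.23, 4.45, 6.27 and 5.98 CPM in control libraries and at 1.17, 1.95, 2.89 and 2.98 CPM in UA libraries, a ratio of 2.44. F55G11.2 was at 4.62, 5.20, 6.78 and 6.82 CPM and at 2.76, 2.70, 3.96 and 3.75 CPM, respectively, a ratio of 1.78. In these genes, as in C32H11.4, replicates 3 and 4 were above replicates 1 and 2 within each condition.

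B0507.8 (chromosome V, 8760622 to 8762961, minus strand) completed the 6 genes with a ratio of 2 or more. It was at 1.32, 2.20, 2.97 and 2.40 CPM in control libraries and at 0.655, 0.419, 0.477 and 1.26 CPM in UA libraries, a ratio of 3.17. Control replicate 1 and UA replicate 4 nearly met, with a lowest control value 1.05 times the highest UA value. K05F6.4 (chromosome II, 1543482 to 1545415) followed at a ratio of 1.97, with 2.50, 2.67, 2.60 and 1.55 CPM in control libraries and 1.5, 1.49, 1.05 and 0.699 CPM in UA libraries. Here control replicate 4 was the low one, only 1.04 times the highest UA library.

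Among the genes with ratios from 1.5 to 1.8, F35E8.10 (chromosome V, 15919434 to 15920373) held 5.96, 6.04, 4.11 and 5.72 CPM in control libraries and 3.72, 1.93, 3.63 and 3.35 CPM in UA libraries, a ratio of 1.73. Control replicate 3 and UA replicate 2 were the low libraries of their groups. An annotated noncoding RNA, F35E8.19, overlaps it on the other strand. Y92H12BR.4 (chromosome I, 1427227 to 1433695) is the only pseudogene of the 23, and it was at 1.46, 1.03, 0.975 and 0.824 CPM in control libraries and at 0.772, 0.767, 0.764 and 0.442 CPM in UA libraries. Reads on a pseudogene may be shared with its parent gene, and how the authors treated reads with several matches is not given in the sources used here. Y82E9BR.17 on chromosome III was at 2.57, 3.94, 3.93 and 3.36 CPM in control libraries and at 1.82, 2.51, 2.29 and 2.38 CPM in UA libraries. The ratio was 1.56 for Y92H12BR.4 and 1.53 for Y82E9BR.17, whose lowest control library was 1.02 times its highest UA library.

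C05E11.6, the one gene of the 23 on the X chromosome (4562163 to 4563125), was at 1.27, 1.22, 1.02 and 1.46 CPM in control libraries and at 0.561, 0.930, 0.859 and 0.838 CPM in UA libraries, a ratio of 1.56. Its UA replicate 1 was below the rest. C03D6.9, at 0.871, 0.586, 0.790 and 0.659 CPM in control libraries and 0.514, 0.581, 0.430 and 0.303 CPM in UA libraries, had the smallest separation of all, 0.586 against 0.581 CPM. It is a single-exon gene of 228 bases (chromosome I, 9658801 to 9659028) that lies within asfl-1 on the other strand. The means of asfl-1 were 106 ± 3.09 CPM in control and 105 ± 6.27 CPM in UA libraries (SD, n = 4 each). The library kit kept the strand, but use of it by the counting step is not given in the sources used here, and without it reads of these overlapping genes cannot be told apart.

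The most abundant gene, F54D5.4 (chromosome II, 11569818 to 11571004), had a small ratio of 1.31. It was at 70.6, 59.9, 53.7 and 59.5 CPM in control libraries and at 43.3, 51.9, 46.0 and 45.1 CPM in UA libraries. Control replicate 3 was only 1.03 times UA replicate 2, and control replicate 1 stood apart at the top. C38D4.10, a single-exon gene of 69 codons on chromosome III, held 4.38, 4.59, 4.32 and 4.45 CPM in the control libraries and 4.00, 3.37, 3.29 and 3.10 CPM in the UA libraries. Per kilobase of exon, F54D5.4 (97.9 CPM), C32H11.4 (46.5 CPM) and C38D4.10 (21.1 CPM) had the highest control levels among the 23 genes.

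ZC204.12 on chromosome II was at 4.00, 3.89, 5.16 and 4.33 CPM in control libraries and at 2.34, 2.53, 3.82 and 3.49 CPM in UA libraries, a ratio of 1.43. UA replicate 3 reached to within a factor of 1.02 of control replicate 2. F32D1.11 on chromosome V was at 4.43, 3.75, 3.44 and 3.48 CPM and at 3.18, 3.07, 1.77 and 2.93 CPM, respectively, with UA replicate 3 as the low library. The remaining genes of intermediate ratio, F23C8.3 (1.46), F44E2.4 (1.40) and F54C8.6 (1.37), had control means of 1.05, 2.21 and 1.59 CPM and UA means of 0.716, 1.58 and 1.16 CPM. F23C8.3 overlaps a pseudogene and F54C8.6 overlaps annotated small RNA genes, while F44E2.4 overlaps no other gene.

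At the lower edge of the selection, F01D5.2 had a ratio of 1.21, ZK1240.2 of 1.23 and M176.5 of 1.27. F01D5.2 was at 2.83, 2.48, 2.88 and 2.45 CPM in control libraries and at 2.34, 2.23, 2.15 and 2.05 CPM in UA libraries. ZK1240.2 was at 3.72, 3.35, 3.41 and 3.86 CPM and at 3.25, 2.98, 2.53 and 2.89 CPM, respectively. M176.5 was almost constant among control libraries (2.07, 2.01, 2.04 and 2.12 CPM), while its UA libraries fell into a high pair and a low pair (1.96, 1.26, 1.34 and 1.96 CPM). These genes were thus separated by margins of at most a factor of 1.05, and F01D5.2 also overlaps F01D5.3 on the same strand.

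Just outside the fold threshold were F31F6.3, C25G4.2 and K07A12.5, whose groups did not overlap either and whose ratios were 1.15. F31F6.3 was at 6.78, 6.89, 5.90 and 6.45 CPM in control libraries and at 5.57, 5.84, 5.30 and 5.84 CPM in UA libraries. C25G4.2 was at 43.5, 37.3, 39.8 and 37.7 CPM and at 35.4, 32.9, 35.1 and 33.9 CPM, and K07A12.5 at 5.30, 5.37, 4.95 and 5.13 CPM and at 4.26, 4.70, 4.15 and 4.94 CPM, respectively. Just below the level threshold were F26F2.5, at a mean of 0.497 CPM with a ratio of 1.93, F40G9.18 (1.89) and F53G2.1 (1.58). The groups of Y38E10A.14, Y54E2A.10 and F23H11.7 overlapped by a small margin, although their ratios were 1.62, 1.23 and 1.28.

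The margin between the groups was thin for most members. For 14 of the 23 genes the lowest control value was less than 1.1 times the highest UA value, and only for 4 was it 1.3 times or more. The low values of the deposited table were mostly even numbers (76.4% of values from 1 to 100, and 147 of the 184 values of the 23 genes), which is the pattern that counting both reads of each pair gives, so the counting error was computed on read pairs, taken as the reads divided by 2. The exact 95% interval of the ratio, which covers counting error only, ran from 2.75 to 7.71 for F26F2.3, from 1.05 to 2.44 for C03D6.9 and from 0.995 to 1.48 for F01D5.2. It started at 1.2 or more for 12 genes and under 1.2 for 11 genes. With library sizes scaled by TMM or by the size factors of DESeq2 in place of the column totals, C03D6.9, M176.5 and ZC204.12 no longer met the rule, and the other 20 genes did.

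In the fit of UA against control over all 13720 tested genes, 21 of the 23 genes were called lower at those thresholds, where 1.55% of all tested genes were called lower and 4.12% were called higher. M176.5 and F01D5.2 were not called. These calls rest on p before adjustment. In this fit, only 1 of the 23 genes, R08F11.4 (adjusted p = 0.00911 in edgeR), had an adjusted p under 0.05. With the replicate number as a block, 6 of the 23 genes had one. The rule used this contrast, so nothing is read from these counts.

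The pairs of replicates offered a contrast that the rule did not use directly. Replicates 1 and 2 differed from replicates 3 and 4 across the transcriptome, as earlier results of these data had shown, with 14.3% of tested genes (1960) different at an adjusted p under 0.05 in edgeR with the condition as a covariate. The labels name no batch for the pairs. The rule favours genes with a small difference of this kind, since a large one would make the conditions overlap. Among the 23 genes, 5 differed and all 5 were higher in replicates 3 and 4. The share of 14.3% covers both directions and was not divided by direction, so nothing is read from the direction of the 5. The log2 difference was 1.5 for C32H11.4 (SE 0.24, adjusted p = 0.00278), 1.16 for F26F2.1 (SE 0.26, adjusted p = 0.0158) and 0.65 for K10D11.2 (SE 0.18, adjusted p = 0.0361). It was 0.54 for F55G11.2 (SE 0.11, adjusted p = 0.0089) and 0.48 for ZC204.12 (SE 0.13, adjusted p = 0.0374). When each library was left out in turn, C32H11.4 and F55G11.2 passed in 8 of 8 fits and F26F2.1 in 7, whereas K10D11.2 passed in 3 and ZC204.12 in 1. All 3 members of the chromosome IV stretch were thus among the 5, but the stretch did not differ as a whole. Of its other tested genes, described below, K08D8.5 (0.38), dod-24 (0.72), F55G11.8 (0.67) and dod-22 (0.64) were higher in replicates 3 and 4. The gene mbug-1 was lower there (-0.55, adjusted p = 1.67e-04). The rest, such as dod-17 (-0.08, adjusted p = 0.775), did not pass. The summed level of the 8 intestine markers, most of it from vit-2 and vit-6, had a mean of 39732 CPM in replicates 1 and 2. In replicates 3 and 4 it was 50994 CPM. By the same fit, ifb-2, vit-2, vit-6, asp-1 and cpr-6 were higher in replicates 3 and 4 at an adjusted p under 0.05. The markers ges-1 (adjusted p = 0.212), elt-2 (0.656) and act-5 (0.361) did not pass. The part of the intestine in the differences of the 5 members was not tested.

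**Figure D2:**
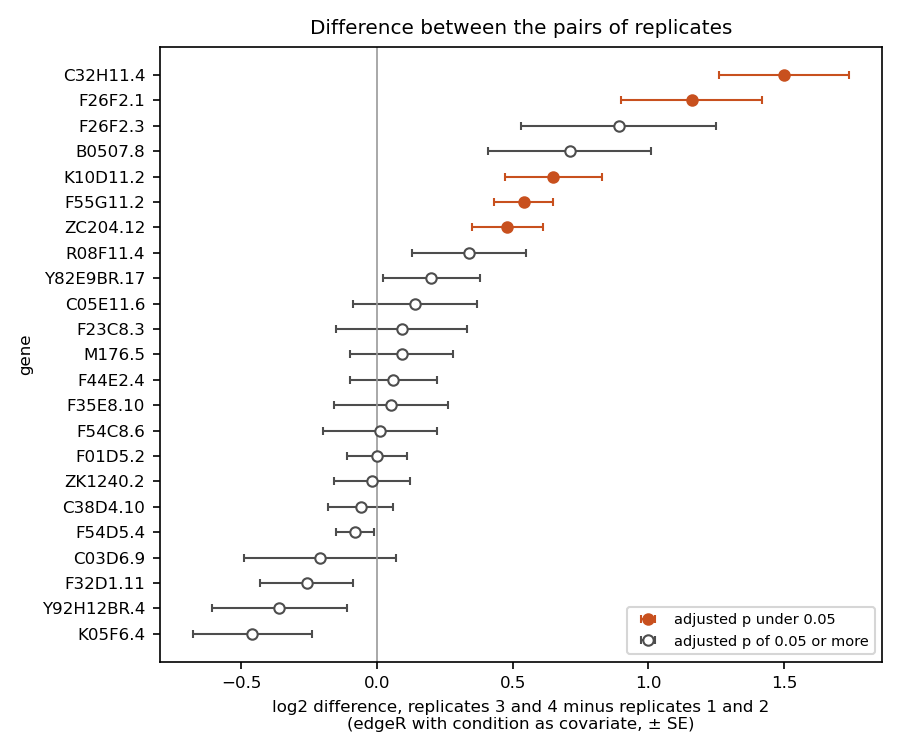
Log2 difference between replicates 3 and 4 and replicates 1 and 2 for each of the 23 genes, from edgeR with the condition as a covariate, with bars for the SE and filled points at an adjusted p under 0.05. The 5 filled points lie between 0.48 and 1.5, to the right of 0, and the lowest open point is K05F6.4 at -0.46.

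A fall from control to UA in both pairs is fixed by the rule for all 23 genes, so the ratios in the pairs are given as description only. The control/UA ratio reached 1.2 in replicates 3 and 4 for all 23 genes and in replicates 1 and 2 for 20, with medians of 1.49 and 1.62. The 3 exceptions in replicates 1 and 2 were F54C8.6 (1.12), ZK1240.2 (1.14) and F01D5.2 (1.16). For C32H11.4 the ratio was 7.30 in replicates 1 and 2 and 2.73 in replicates 3 and 4, the widest gap among the 23 genes. The interaction of condition and pair, which tests whether the effect of UA differed between the pairs, was 1.39 on the log2 scale for C32H11.4 (SE 0.24), with an adjusted p of 0.0831 in edgeR's main analysis. Its adjusted p was 5.08e-07 in DESeq2, 7.39e-19 in edgeR without the filter on low counts and 0.0804 in edgeR with another normalization, so the call depends on the method. None of the 23 genes passed an adjusted p under 0.05 in the main analysis, where 0.0802% of tested genes did. Before adjustment, C32H11.4 was the only 1 of the 23 genes with a p under 0.05, where 8.55% of tested genes (1173 of 13720) had one.

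**Figure D3:**
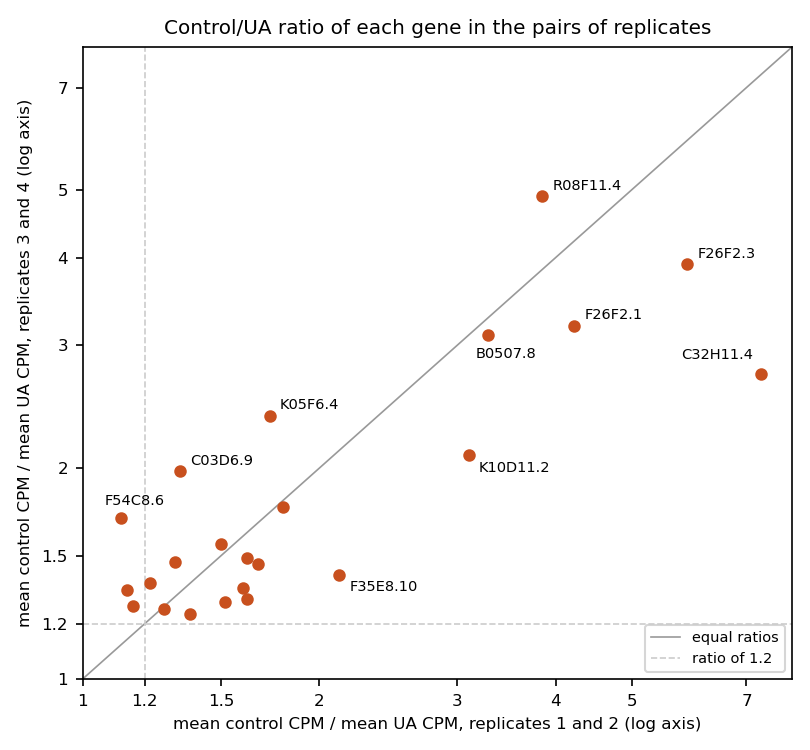
Control/UA ratio of mean CPM of each of the 23 genes in replicates 1 and 2 (horizontal) and in replicates 3 and 4 (vertical), both on log axes, with the line of equal ratios and dashed lines at 1.2. C32H11.4 lies farthest to the right of the line, at 7.30 and 2.73, and R08F11.4 above it, at 3.85 and 4.90.

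The genes were spread over all 6 chromosomes, with 3 on I, 6 on II, 4 on III, 3 on IV, 6 on V and 1 on X, and 4.35% of them lay on X against 15.3% of the other unnamed genes above the floor. The 22 protein-coding members encoded a median of 304 residues (69 to 1283), and the 4268 unnamed protein-coding genes above the floor a median of 307. Both sets had a median of 5 exons. Only the pairs F26F2.1 with F26F2.3 and F55G11.2 with K10D11.2 lay within 10 kb of each other.

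The 3 members on chromosome IV lie together, and the stretch from 10 kb before the first to 10 kb after the last (12911264 to 12991991, 80.7 kb) holds 26 protein-coding genes. This stretch carries several dod genes, named as downstream of DAF-16, the FOXO transcription factor of insulin signalling. Of these, dod-22 and dod-24 are known to encode CUB-like domain proteins and to be induced by bacterial pathogens through the p38 MAP kinase pathway. Of the 13 tested genes of the stretch that are not members, 8 were called lower with UA and 0 were called higher in edgeR, against 1.55% of all tested genes called lower. The 8 genes were K08D8.5, irg-6, dod-24, dct-19, F55G11.8, dod-22, mbug-1 and dod-17. K08D8.5 and F55G11.8 meet the rule of the members and were set aside by name, and the low levels of these genes were known from earlier results, so the count is not independent of the choice of members. Another dod gene of the stretch, dod-21, had a mean of only 0.286 CPM and was not called (log2 fold change 0.16, SE 0.58, adjusted p = 0.980 in edgeR).

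Beside F55G11.2, 52 bases away on the other strand, dod-22 was at 28.2, 25.4, 34.5 and 43.2 CPM in control libraries and at 4.63, 4.19, 7.11 and 6.57 CPM in UA libraries. Every UA library was far below every control library, with a log2 fold change of -2.56 (SE 0.23, adjusted p = 0.00429), the only adjusted p under 0.05 among the 8. With the replicate number as a block, 5 of the 8 passed it, dod-22, dod-24 (adjusted p = 0.00181), mbug-1 (0.00265), F55G11.8 (0.00556) and K08D8.5 (0.0328). The genes dod-22 and F55G11.2 point towards each other, and without a statement on strand in the counting, reads from the end of dod-22 on F55G11.2 cannot be told apart from its own. dod-24 was at a mean of 90.5 ± 25.4 CPM in control libraries, none of them under 63.2 CPM, and of 26.3 ± 8.92 CPM in UA libraries, none over 38.5 CPM (SD, n = 4 each, log2 fold change -1.80, SE 0.27, adjusted p = 0.0522). Next to K10D11.2, dod-17 changed by -0.80 on the log2 scale (SE 0.17, adjusted p = 0.188). The genes K10D11.3, K10D11.6 and K10D11.5, on the other side of K10D11.2, had log2 fold changes of 0.10, 0.09 and 0.38 and were not called. C32H11.3, which lies beside C32H11.4, changed by -0.63 on the log2 scale and was not called (adjusted p = 0.742), but it was called when the replicate number was a block (adjusted p = 0.351), when the pair was a covariate and without control replicate 1.

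**Figure D4:**
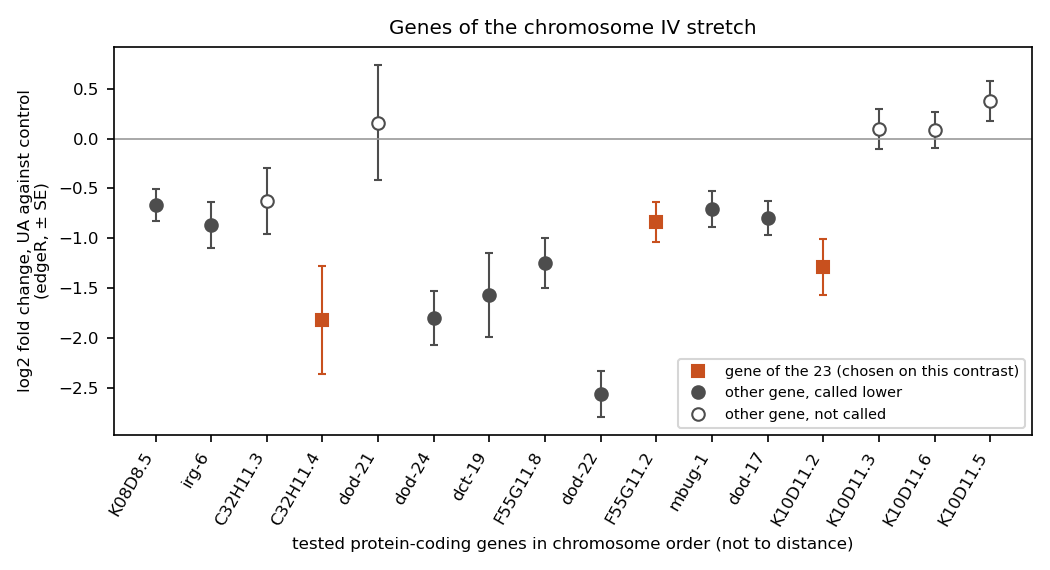
Log2 fold change of UA against control (edgeR, with bars for the SE) for the 16 tested protein-coding genes of the chromosome IV stretch in chromosome order, with squares for the members, which were chosen on this contrast, and filled circles for other genes called lower. The 8 filled circles lie between -2.56 and -0.67, and the 5 open circles between -0.63 and 0.38.

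Of 10 pathogen response genes, which included dod-22 and dod-24, 9 were tested. The genes irg-4, dod-22, dod-24, clec-60 and clec-85 were called lower, and none was called higher. irg-4, an infection response gene, was at 9.18, 6.28, 12.2 and 20.7 CPM in control libraries and at 0.889, 0.977, 3.68 and 3.63 CPM in UA libraries (log2 fold change -2.41, SE 0.54, adjusted p = 0.221). Like C32H11.4, irg-4 was higher in replicates 3 and 4 in both conditions. The other tested genes of the list were not called, and they did not all fall. The log2 fold change was positive for irg-1 (0.78, SE 0.38), irg-5 (0.22, SE 0.32) and the lysozyme gene lys-7 (0.20, SE 0.07). It was negative for lys-1 (-0.29, SE 0.16). The gene lys-7 met the threshold on p and missed only that on fold, whereas irg-1 met that on fold and missed that on p. With the replicate number as a block, lys-1 was called lower (log2 fold change -0.31, adjusted p = 0.0376). In that fit the adjusted p was 0.00378 for irg-4, 0.0490 for clec-85 and 0.0695 for clec-60. The list was drawn up with earlier results of these data known.

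On chromosome V, the stretch around F26F2.1 and F26F2.3 (20549162 to 20576554, 27.4 kb) holds 13 protein-coding genes, of which 6 were too low to test. Of the 5 tested genes that are not members, only F26F2.5 was called lower, with 0.424, 0.562, 1.02 and 0.612 CPM in control libraries and 0.374, 0.326, 0.334 and 0.326 CPM in UA libraries (log2 fold change -0.96, SE 0.32, adjusted p = 0.469). It was the gene that missed the level threshold of the rule by the least. F26F2.4, too low to test, was at 0.141, 0.281, 0.534 and 0.753 CPM in control libraries and at 0.0468, 0, 0 and 0.0931 CPM in UA libraries. Another gene of this stretch, vmo-1, had a log2 fold change of 0.34 (SE 0.40) and was not called. With the replicate number as a block, vmo-1 (log2 fold change 0.41, adjusted p = 0.293) and Y38H6C.23 of the same stretch (0.83, adjusted p = 0.390) were called higher.

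Across all members, 30 of the 46 direct protein-coding neighbours could be tested, and their median log2 fold change was -0.03. Of these, 4 (13.3%) were called lower, where 1.55% of all tested genes were, and 2 (6.67%) were called higher, where 4.12% were. The neighbours called lower were dod-22, mbug-1, dod-17 and ddn-1, and the first 3 of them belong to the chromosome IV stretch. Among the 25 tested neighbours of the other 20 members, only ddn-1, 105 bases from B0507.8 on the same strand, was called lower. ddn-1 was at 1.04, 2.88, 5.57 and 3.51 CPM in control libraries and at 1.01, 1.07, 1.46 and 1.77 CPM in UA libraries, where control replicate 1 overlapped the UA libraries (log2 fold change -1.31, SE 0.44, adjusted p = 0.468). F01D5.1, next to F01D5.2, was not called in edgeR's main analysis (log2 fold change -0.54, adjusted p = 0.727). It was called lower in 9 of the alternatives, among them DESeq2, the replicate number as a block (adjusted p = 0.0781) and each pair of replicates on its own.

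R08F11.4 lay 296 bases from a gene that moved the other way. This neighbour, cyp-33C8, encodes a cytochrome P450, a family of enzymes that oxidise fatty acids and foreign compounds, and lies on the same strand. cyp-33C8 was at 3.72, 3.33, 5.16 and 4.89 CPM in control libraries and at 6.45, 7.07, 8.07 and 6.38 CPM in UA libraries, without overlap (log2 fold change 0.69, SE 0.18, adjusted p = 0.307). The other neighbour called higher was ham-2, which lies 2754 bases from C05E11.6 and had a log2 fold change of 0.49 (SE 0.22, adjusted p = 0.681). Its groups overlapped. Of 5 xenobiotic response genes, cyp-13A5 and pgp-1 were called higher and none was called lower, and of 5 genes of heat and unfolded protein stress none was called in either direction.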

How the data were processed

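Poly(A) RNA of whole animals was sequenced in 8 libraries, and the replicate numbers of the 4 control and 4 UA populations came from the sample labels. The deposited values are read counts per RefSeq gene, which the authors obtained by aligning filtered reads to WBcel235 with HISAT2 and counting with featureCounts 1.6.2, without normalization. The deposited table also gives exon lengths in bases. Symbols were looked up in a RefSeq gene table, which held 46925 of the 46928 genes, and gene models were taken from Ensembl release 115, where all 23 members have the same start and end.

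CPM was computed on the column totals. Genes kept by filterByExpr on the condition (13720) were fitted with the quasi-likelihood test of edgeR 4.0.16 in R 4.3.3 on TMM-normalized counts, and p-values were adjusted by the Benjamini-Hochberg method over all of them. The biological coefficient of variation was 0.16. DESeq2 1.42.0, other filters and normalizations, leaving out each library, the replicate number as a block, fits of each pair of replicates and counts divided by 2 were tried as alternatives, of which the fits of the pairs, the pair as a covariate, the divided counts and all alternatives for neighbours were added after seeing the data. Deviations from the condition means correlated between libraries of equal replicate number (0.31, 0.246, 0.191 and 0.353). The fits with the replicate number as a block took these numbers to pair the libraries. The main fit of UA against control held the condition alone and left this pairing out, as the methods of the study give no block. Libraries of unequal number within replicates 1 and 2 or within replicates 3 and 4 correlated similarly (0.15 to 0.333) and those across these pairs did not (-0.324 to -0.0848), so the pairing by number cannot be told apart from that grouping. Counting intervals are exact binomial intervals and cover counting error only. In the main fit, p-values measure the spread between the 4 populations of each condition, taken as independent although they grouped in pairs. In the fits with a block, a pair term or an interaction, they measure the spread left after these terms. Other steps used Python 3.11.15, pandas 2.3.3 and scipy 1.17.1.

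The members and all lists were chosen with earlier results of these data known. Values in every library were to be given for the 12 members of highest ratio, the 8 of highest mean CPM, members within 10 kb of each other, the 3 at each side of the fold threshold and those that differed between pairs of replicates, and other genes were named only as neighbours, markers or genes set aside. Y82E9BR.17 and the remaining members were added so that each is accounted for, and the other genes of the stretches on chromosomes IV and V, and those near the other thresholds, were named after their values were seen. Protein similarity and promoter motifs were planned but not analysed here, since no sequences were used.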

Additional observations from a re-analysis of the deposited data

Results flagged for a closer look

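In 5 of 46 groups of 4 libraries, a library lay so far from the other 3 that its gap exceeded Dixon's critical value as a share of the range, where chance alone gives about 2.3. R08F11.4 was at 4.19 CPM in control replicate 4, the highest of its group, and F54C8.6 at 2.04 CPM in control replicate 3, also the highest. The low values were K05F6.4 at 1.55 CPM in control replicate 4, F35E8.10 at 4.11 CPM in control replicate 3 and Y92H12BR.4 at 0.442 CPM in UA replicate 4. The libraries concerned differed from gene to gene, with control replicates 3 and 4 each named for 2 genes.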

How the results depend on the processing

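The number of genes that met the rule moved with its thresholds, from 23 to 54 with a floor of 0.1 CPM, 76 without a floor, 13 with a fold of 1.5 and 35 without a fold threshold. It ranged from 37 to 74 when a library was left out, since fewer libraries overlap less often, and 21 to 23 of the members were kept in each case. Leaving out a library cannot make the groups of a member overlap. A member could thus be lost only by its fold or level, and nothing is read from the members kept. The count of members called lower was 21 in the main analysis, where 213 of 13720 tested genes were called lower. It was 12 in replicates 1 and 2 alone (654 of 13861 tested genes) and 14 in replicates 3 and 4 alone (240 of 13884). It was 18 in DESeq2 (201 of 13720) and ran from 15 to 19 when a library was left out. The cause of these differences was not tested. The count that differed between the pairs of replicates ranged from 3 to 5 when a library was left out. DESeq2, and edgeR without the filter, each called 1 member, C32H11.4, for a different effect of UA between the pairs, against 0 in the main analysis; the cause was not tested. With the replicate block, 18 members and 339 of 13720 tested genes were called lower. Calls were gained for C32H11.3 and F01D5.1 beside members, for vmo-1 and Y38H6C.23 of the chromosome V stretch and for the list genes lys-1 and dpy-7. The calls of 3 members (F23C8.3, F54C8.6 and ZK1240.2) were lost with the block. The log2 fold changes of the members kept their direction in all the alternatives fitted for them. The rule put every UA value below every control value, so these fits could hardly reverse it, and nothing is read from this. Read depth limits the members under 2 CPM most, 5 of the 23 having under 20 reads in a library.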
